A study of Mus musculus with 10 samples.

Results

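The 10 genes described here are Trp53, which encodes the transcription factor p53, 6 genes that p53 is known to induce (Mdm2, Ccng1, Trp53inp1, Gadd45a, Bax and Bbc3) and the CDK inhibitor genes Cdkn1a, Cdkn1b and Cdkn2b, of which Cdkn1a is also a p53 target. They were taken by symbol from the 55487 genes of the deposited TPM table, where each symbol occurred once. All 10 passed the filter on low values, a mean TPM of 1 or more over the libraries, which left 12870 genes for testing. RNA of colonic intestinal epithelial cells (IECs) was sequenced from 5 WT and 5 RhoB-/- mice, 1 library per mouse. Both groups were C57BL/6J, and the RhoB-/- mice were, by their label, homozygous for a germline knockout of RhoB. By design, such a knockout removes the gene from every cell type and not only from the epithelium. The Rhob values of the libraries are given below. By the study's methods the mice were young adults, and WT males were purchased whereas the knockout was generated elsewhere. Whether the sequenced WT mice were littermates of the RhoB-/- mice was not given in the sources used here. No treatment is given in the labels. IECs were released from the colon with EDTA and shaking, without sorting, so a library can hold other cells.

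p53 is a transcription factor that is kept low by the ubiquitin ligase Mdm2 and is stabilised after DNA damage and other stresses. Its targets include its own inhibitor Mdm2, inducers of apoptosis such as Bbc3 and Bax, and Cdkn1a (p21), which binds cyclin-CDK complexes and stops the cell cycle. In the intestinal epithelium, p21 and p27 (Cdkn1b) are known from cells that leave the crypt and differentiate, and Bbc3 is known for apoptosis of crypt cells after irradiation. Because p53 is controlled mostly at the level of the protein, the mRNA of Trp53 does not report its activity.

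Rhob, the targeted gene, had a TPM of 170.5 to 388.7 in WT libraries and of 0.09 to 0.57 in RhoB-/- replicates 1 to 4. The library labelled RhoB-/- replicate 5 had 110.9, and it is kept in the RhoB-/- group as labelled, with some of the results also given without it. TPM scales each library to nearly the same total and keeps no depth, so the counting error of each value is unknown. The mitochondrial share, the percentage of a library's TPM from mitochondrially encoded genes, was 17.5% to 26.5% in WT mice (highest in WT replicate 1) and 10.3% to 22.4% in RhoB-/- mice (lowest in RhoB-/- replicate 3). Genotypes were compared with limma on log2(TPM + 1), a scale on which changes of weakly expressed genes appear too small. The p-values set the difference between the groups against the spread between mice within a group. A difference in the source of the mice between the groups would not be covered by that spread. A gene was called at a Benjamini-Hochberg adjusted p below 0.05 over all tested genes. This rule called 995 genes higher (7.73%) and 1734 lower (13.5%) in RhoB-/- IECs. It called 1443 higher and 771 lower once the log2 fold changes were recentred on their median of -0.13, and 1131 higher and 3536 lower in TPM rescaled without mitochondrially encoded genes.

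Of the 10 genes, Bbc3 and Ccng1 fell in RhoB-/- IECs and none rose. This is 2 of 10 called lower, against 13.5% of all tested genes, and 0 of 10 called higher, against 7.73% (limma, adjusted p). At an unadjusted p below 0.05 (limma), 5 were lower and 0 were higher. The share of all tested genes at this threshold was not counted, so these numbers say nothing particular about the 10 genes. The log2 fold change was negative for 8 of the 10 (7 after recentring), and for 65.4% of all tested genes. The median over the 10 genes was -0.27. Without the library labelled RhoB-/- replicate 5, 1 was lower and 0 higher, beside 8.68% of tested genes lower and 719 of 12850 higher. At the study's thresholds, an unadjusted p below 0.05 with a fold change above 1.5, Bbc3 alone was lower, where 8.33% of tested genes were lower and 6.37% higher. Cdkn1a had the most positive difference of the 10, and its call was not reached.

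**Figure D1:**
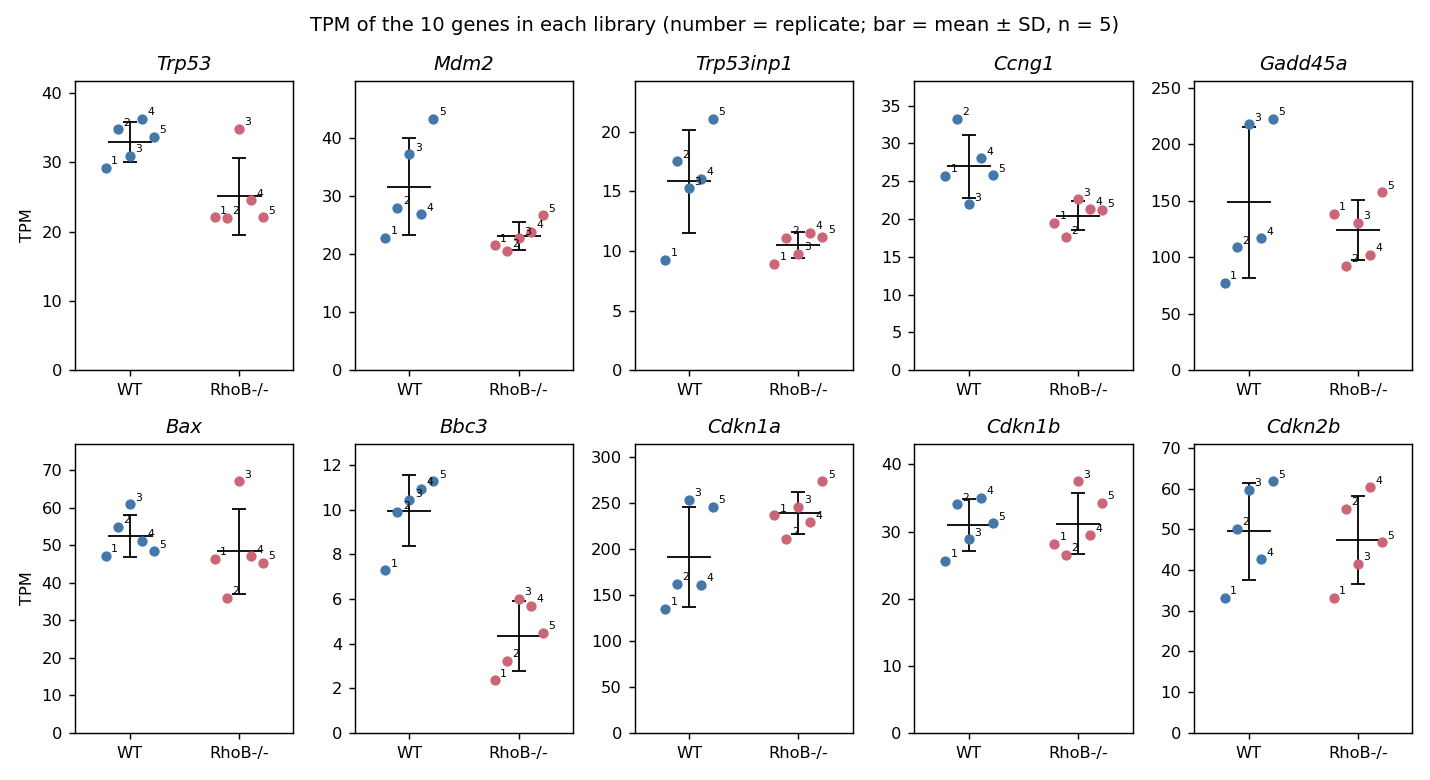
TPM (linear axes from 0) of the 10 genes in each of the 5 WT (blue) and 5 RhoB-/- (red) libraries, with replicate numbers beside the points and bars for the mean ± SD. The groups are apart for Bbc3 and overlap for the other 9 genes, and WT replicate 1 is low in most panels.

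The sequences upstream of the genes with the most positive and the most negative difference, Cdkn1a and Bbc3, and of Ccng1, the other gene that fell, are shown to let the p53 motif be seen in place. RefSeq promoter windows (GRCm38.p6, 250 bases before to 50 after a transcription start, 5′ to 3′ on the gene's strand) were found for 9 of the 10 genes. They were searched on both strands for the p53 decamer, the 10-base unit that occurs in pairs in a p53 response element and whose consensus reads the same on both strands. Exact matches are in capitals. The Cdkn1a window is chr17:29090729-29091028 (plus strand, the first of 2), that of Ccng1 is chr11:40755237-40755536 (minus strand) and that of Bbc3 is chr7:16309333-16309632 (plus strand, the first of 3).
Cdkn1a: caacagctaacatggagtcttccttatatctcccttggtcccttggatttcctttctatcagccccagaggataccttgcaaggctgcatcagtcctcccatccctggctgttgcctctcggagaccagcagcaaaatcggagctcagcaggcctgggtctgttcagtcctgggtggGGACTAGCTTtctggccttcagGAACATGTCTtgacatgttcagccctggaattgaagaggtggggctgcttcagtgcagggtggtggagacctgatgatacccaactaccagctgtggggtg
Ccng1: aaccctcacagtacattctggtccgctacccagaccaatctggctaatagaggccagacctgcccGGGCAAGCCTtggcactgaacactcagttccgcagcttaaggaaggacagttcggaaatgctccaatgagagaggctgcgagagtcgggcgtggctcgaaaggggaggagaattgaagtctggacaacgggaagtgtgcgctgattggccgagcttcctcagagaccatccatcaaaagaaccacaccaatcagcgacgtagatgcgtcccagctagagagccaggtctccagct
Bbc3: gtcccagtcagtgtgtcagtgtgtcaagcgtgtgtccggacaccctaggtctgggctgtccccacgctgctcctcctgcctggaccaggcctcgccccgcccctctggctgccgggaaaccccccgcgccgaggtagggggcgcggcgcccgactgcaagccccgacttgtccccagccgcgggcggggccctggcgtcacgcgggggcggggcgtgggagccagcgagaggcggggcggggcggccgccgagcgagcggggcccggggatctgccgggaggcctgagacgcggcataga
The first Cdkn1a window held 2 decamers, whose first bases were at -73 and -51 from the start, with 12 bases between them. The bases right after the second decamer, tgacatgttc, miss an exact match at their first base only. Inexact matches were not counted, so the marked pair need not be the response element. The other Cdkn1a window held 0 decamers. A pair with 0 to 13 bases between was present in 24 of all 32851 windows (0.0731%). The Ccng1 window held 1 decamer, at -185. None of the 3 Bbc3 windows held an exact match, which says only that these letters are not in these windows. Of the 12 windows of the 9 genes, 6 held at least 1 decamer, those of Gadd45a, Bax, Mdm2, Ccng1, Trp53 and Cdkn1a, against 8.36% of all windows. A match is a description of sequence, and binding was not measured here.

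Bbc3 encodes Puma, a BH3-only protein that binds the anti-apoptotic members of the BCL2 family and is one of the strongest apoptosis inducers downstream of p53. The gene lies on chromosome 7 from 16308393 to 16318205, plus strand (GRCm38), with 4 annotated transcripts. Its TPM was 7.29, 9.88, 10.4, 10.9 and 11.3 in WT replicates 1 to 5 and 2.35, 3.23, 6.00, 5.69 and 4.49 in RhoB-/- replicates 1 to 5. Every RhoB-/- library lay below every WT library. Such a full separation towards lower values was seen for 1 of the 10 genes and for 8.55% of all tested genes, and towards higher values for 0 of the 10 and 5.97%. The means were 9.96 ± 1.58 and 4.35 ± 1.56 (SD, n = 5 each), which is 56.3% lower, and the log2 fold change was -1.07 (standard error 0.20, adjusted p = 0.00392, limma). Bbc3 stayed called in all 18 alternative fits, with log2 fold changes from -1.24 to -0.91. Without the library labelled RhoB-/- replicate 5 the adjusted p was 0.00985, and with the fold changes recentred on their median the log2 fold change was -0.95 (adjusted p = 0.00759, limma). Within each library, the ratio of Bbc3 to Bax, which does not depend on how a library is scaled, was 0.155 to 0.233 in WT and 0.0506 to 0.121 in RhoB-/- mice. This ratio was chosen after the values were seen. Its groups did not overlap, but neither did those of its numerator, Bbc3, alone, so the ratio is no separate support.

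Bax encodes the effector that permeabilises the outer mitochondrial membrane once a protein such as Puma has released it. Its TPM was 47.1 to 60.9 in WT (median 51.2) and 36.1 to 67.0 in RhoB-/- libraries (median 46.4). The ranges overlapped widely, although 4 of 5 RhoB-/- libraries lay below every WT library and RhoB-/- replicate 3 lay above all of them. Its log2 fold change was -0.14 (95% interval -0.46 to 0.18, adjusted p = 0.523, limma). A readthrough gene, Gm45808, overlaps Bax on the same strand, with 0.0280 TPM on average in WT and 0.0900 in RhoB-/- mice, so little expression was assigned to it.

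Ccng1 encodes cyclin G1, which recruits a phosphatase to Mdm2 and acts in feedback on p53. Its TPM was 25.7, 33.3, 21.95, 28.0 and 25.8 in WT replicates 1 to 5 and 19.5, 17.6, 22.6, 21.4 and 21.2 in RhoB-/- replicates 1 to 5. Only WT replicate 3 reached into the range of the RhoB-/- libraries, 4 of which lay below every WT library. The means were 26.9 ± 4.15 and 20.4 ± 1.94 (SD, n = 5 each), and the log2 fold change was -0.37 (standard error 0.12, adjusted p = 0.0418, limma). Leaving out each library in turn, the call was lost in 8 of 10 cases, including that without the library labelled RhoB-/- replicate 5 (adjusted p = 0.0676), and after recentring on the median (log2 fold change -0.25, adjusted p = 0.172, limma). It is therefore a small difference close to the threshold.

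Trp53 itself was expressed at a TPM of 29.2, 34.8, 30.9, 36.3 and 33.7 in WT replicates 1 to 5. In RhoB-/- replicates 1, 2, 4 and 5 it was 22.05, 21.99, 24.52 and 22.05, and in RhoB-/- replicate 3 it was 34.9. The first 4 lay below every WT library and the last lay inside the WT range. The means were 33.0 ± 2.87 and 25.1 ± 5.56 (SD, n = 5 each), the log2 fold change was -0.40 (standard error 0.13) and the adjusted p of 0.0520 missed the threshold (limma). Without RhoB-/- replicate 3 the log2 fold change was -0.52 (adjusted p = 0.00318), and without the library labelled RhoB-/- replicate 5 the adjusted p was 0.112. RhoB-/- replicate 3 had the lowest mitochondrial share of all libraries, at 10.3%, and the part of this share in its Trp53 value was not tested. The gene lies on chromosome 11 from 69580359 to 69591873 on the plus strand, and its pseudogene Trp53-ps was listed at a TPM of 0 in every library.

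The genes whose TPM profile over the 10 libraries was most like that of Trp53, by the root mean square difference of standardised log2(TPM + 1), were Npm1 (0.139 standard deviations), Endog (0.164) and Impdh2 (0.175). Npm1 is a nucleolar chaperone of ribosome assembly, Endog a mitochondrial nuclease, and Impdh2 catalyses a rate-limiting step of guanine nucleotide synthesis. Their log2 fold changes were -0.56, -0.56 and -0.67.

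Mdm2 encodes the ubiquitin ligase that marks p53 for degradation and is itself induced by p53. Its TPM was 22.8, 27.9, 37.2, 26.8 and 43.3 in WT replicates 1 to 5 and 21.5, 20.5, 22.7, 23.9 and 26.7 in RhoB-/- replicates 1 to 5. WT replicates 3 and 5 stood highest, and the RhoB-/- libraries covered a narrower range at the lower end of WT, with a coefficient of variation of 10.4% against 26.5%. The log2 fold change was -0.41 (standard error 0.16, adjusted p = 0.0892, limma), and the call was reached in 2 of the 18 alternative fits.

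Trp53inp1 encodes a stress-induced nuclear protein that assists p53 in activating its targets. Its TPM was 9.26, 17.5, 15.3, 16.1 and 21.1 in WT replicates 1 to 5 and 8.91, 11.1, 9.77, 11.5 and 11.2 in RhoB-/- replicates 1 to 5. WT replicate 1 lay within the RhoB-/- range and the other WT libraries lay above it. The difference on the log2 scale was -0.51 (standard error 0.18, adjusted p = 0.0567, limma). Without WT replicate 1 it was -0.68 (adjusted p = 0.00419, limma), and 4 of the 18 alternative fits reached the call.

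Gadd45a encodes a small nuclear protein of the DNA damage and growth arrest response that binds PCNA and p21. Its TPM was 77.3, 108.7, 217.8, 116.9 and 222.6 in WT replicates 1 to 5, and 138.6, 92.7, 130.6, 102.0 and 157.6 in RhoB-/- replicates 1 to 5. All RhoB-/- libraries lay inside the WT range, which WT replicates 3 and 5 stretched at the top and WT replicate 1 at the bottom. Gadd45a had the widest WT spread of the 10 genes, with a coefficient of variation of 45.1%. The log2 fold change was -0.16 (95% interval -0.77 to 0.45, adjusted p = 0.701, limma), so changes of up to about these bounds cannot be told from no change. It turned to 0.00 without WT replicate 3 and to 0.01 without WT replicate 5. A noncoding gene on the opposite strand, E230016M11Rik, overlaps Gadd45a, with averages of 1.65 TPM (WT) and 1.27 TPM (RhoB-/-). Its relatives Gadd45b and Gadd45g both fell, with log2 fold changes of -0.74 (adjusted p = 0.00527) and -0.51 (adjusted p = 0.00947, limma), and both stayed called in all 18 alternative fits.

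Cdkn1a, whose window above held the paired decamers, was the most highly expressed of the 10 genes. Its TPM was 135.2, 161.9, 253.4, 161.0 and 245.9 in WT replicates 1 to 5 and 236.3, 211.3, 246.1, 229.1 and 273.3 in RhoB-/- replicates 1 to 5. The 5 RhoB-/- values exceeded the WT median of 161.9, but WT replicates 3 and 5 lay within their range. The means were 191.5 ± 54.2 and 239.2 ± 22.9 (SD, n = 5 each). The log2 fold change was 0.36 (95% interval -0.02 to 0.74, unadjusted p = 0.062, adjusted p = 0.158, limma). It was positive in all 18 alternative fits, from 0.25 to 0.49, and called in 0 of them, with adjusted p from 0.069 to 0.300. The gene model AC167363.2 overlaps Cdkn1a (chromosome 17, 29090976 to 29100727, plus strand) on the opposite strand with averages of 9.56 TPM (WT) and 4.76 TPM (RhoB-/-). The study's methods name an orientation setting for the alignment, but whether strand was used in the quantification is not given in the sources used here, so it is uncertain how reads of such pairs were assigned.

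The genes most like Cdkn1a over the 10 libraries, by the same measure, were Cldn23 (0.200), which encodes a claudin of differentiated epithelium, Nfkb2 (0.236), a subunit of NF-kB, and Areg (0.240), a ligand of the EGF receptor. Their log2 fold changes were 0.86, 0.15 and 0.80.

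Ratios within a library set Cdkn1a beside other genes of the 10. The ratio of Cdkn1a to Bbc3 was 18.5, 16.4, 24.3, 14.7 and 21.8 in WT replicates 1 to 5 and 100.6, 65.4, 41.0, 40.3 and 60.9 in RhoB-/- replicates 1 to 5. The groups did not overlap, in a ratio whose denominator is the gene that fell. The ratio of Cdkn1a to Trp53 was 4.44 to 8.19 in WT and 7.06 to 12.4 in RhoB-/- libraries, and that of Cdkn1a to Cdkn1b was 4.60 to 8.78 and 6.57 to 8.38. In both of these the groups overlapped. The pairs were chosen after the values were seen, so the ratios are given without a test.

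Cdkn1b encodes p27, which binds cyclin E-CDK2 much as p21 does. Its TPM was 25.66 to 35.02 in WT (median 31.23) and 26.5 to 37.5 in RhoB-/- libraries (median 29.5). The log2 fold change was 0.01 (95% interval -0.26 to 0.28, adjusted p = 0.972, limma), the smallest difference of the 10. Cdkn2b encodes p15, which binds CDK4 and CDK6 and is a classical target of TGF-beta. Its TPM was 33.2 to 61.8 in WT (median 50.1) and 33.2 to 60.3 in RhoB-/- libraries (median 46.8), nearly the same range. Its log2 fold change was -0.06 (95% interval -0.48 to 0.37, adjusted p = 0.862, limma). The direction of both small differences changed with the scaling. Cdkn1b had -0.06 after rescaling to TPM without mitochondrially encoded genes, and Cdkn2b had 0.07 after recentring on the median.

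**Figure D2:**
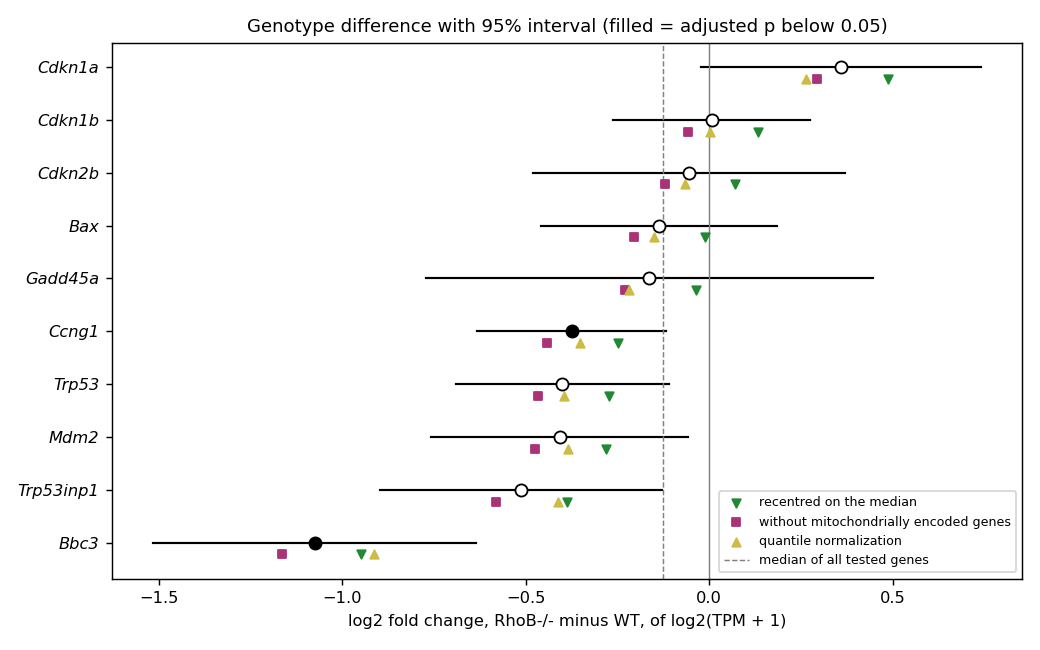
Log2 fold change (RhoB-/- minus WT, of log2(TPM + 1)) of the 10 genes with 95% intervals, filled where the adjusted p was below 0.05. Symbols below each line give the value after recentring, after leaving out mitochondrially encoded genes and after quantile normalization. Bbc3 lies far to the left under each, and Cdkn1a to the right of 0 under each.

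In WT libraries the mean TPM, which is per transcript length and can be compared between genes, ran from 191.5 for Cdkn1a and 148.6 for Gadd45a through 52.5 for Bax, 49.5 for Cdkn2b, 33.0 for Trp53, 31.6 for Mdm2, 31.0 for Cdkn1b and 26.9 for Ccng1 to 15.8 for Trp53inp1 and 9.96 for Bbc3. Of neighbours in this order, only Gadd45a and Bax, and Ccng1 and Trp53inp1, had WT ranges that did not overlap. Cdkn1a was thus at the 95.7th percentile of tested genes by WT mean and Bbc3 at the 44.5th.

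The WT libraries differed among themselves in these genes. WT replicate 1 was the lowest WT library for 9 of the 10 genes, and it had the highest mitochondrial share, at 26.5%. WT replicate 5 was the highest for 5. WT replicates 3 and 5 were the top pair for Cdkn1a, Mdm2, Gadd45a and Cdkn2b. The summed TPM of 12 immediate-early genes, such as Fos and Jun, was 1927, 3219, 5813, 3604 and 5942 in WT replicates 1 to 5, so it was also highest in replicates 3 and 5 and lowest in replicate 1. In RhoB-/- libraries it was 3095 to 4445, inside the WT range, and 0 of the 12 were called in either direction (limma, also 0 at an unadjusted p below 0.05), with 6 positive and 6 negative. The summed TPM of 7 heat shock genes was 3419 to 4554 in WT and 894.3 to 1573 in RhoB-/- libraries. Of these 7, 6 were called lower, where 13.5% of all tested genes were, with Hspa1a (log2 fold change -3.93) and Hspa1b (-3.47) changed most. The lists were split in this way after the values were seen. The part of these differences in the values of the 10 genes was not tested. After rescaling to TPM without mitochondrially encoded genes, 5 of the 10 genes were called lower, namely Bbc3, Ccng1, Trp53, Mdm2 and Trp53inp1, and so were 26.7% of all tested genes.

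**Figure D3:**
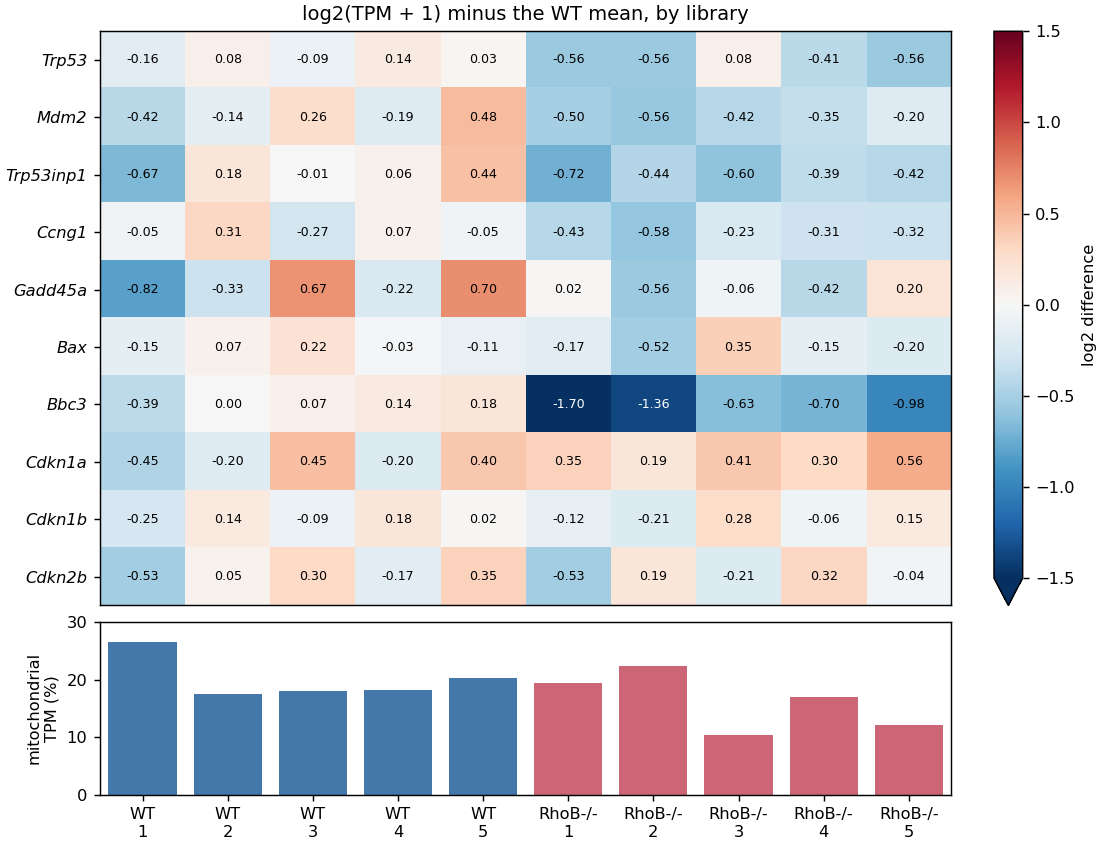
Upper panel, log2(TPM + 1) of each gene minus its WT mean in the 10 libraries, blue for lower and red for higher. Lower panel, percentage of each library's TPM from mitochondrially encoded genes; WT replicate 1, lowest for 9 of the 10 genes, has the tallest bar at 26.5%.

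Around the 10 genes, other p53 targets moved in both directions. Of 34 further p53 target genes, 31 were tested, and 8 were lower (25.8%) and 3 higher (9.68%), beside 13.5% and 7.73% of all tested genes. Their median log2 fold change was -0.15, beside -0.13 over all tested genes. Gdf15, a secreted stress cytokine, fell from 54.6 ± 17.1 to 11.9 ± 3.40 TPM (SD, n = 5 each), which is -2.10 on the log2 scale (adjusted p = 8.91e-05, limma). Plk2, a kinase of the stress response, had -1.40 (adjusted p = 9.57e-05). Pmaip1, which encodes the BH3-only protein Noxa, had -0.84 (adjusted p = 0.00861), and Ddb2, a damage-recognition subunit of nucleotide excision repair, had -0.80 (adjusted p = 0.00156, limma). These 4 stayed called in all 18 alternative fits. Over the list, 7 were lower and 2 higher without the library labelled RhoB-/- replicate 5, where 8.68% of all tested genes were lower. The 3 that rose, named after their values were seen, were the death receptor gene Fas (log2 fold change 0.74), the tetraspanin gene Cd82 (0.64) and Perp (0.45), a desmosome-associated membrane protein. Fas and Cd82 stayed called in all 18 alternative fits and Perp in 11.

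Of 18 regulators of p53, 4 were lower (22.2%) and 1 was higher (5.56%), beside 13.5% and 7.73% of all tested genes. Atm and Atr, the kinases that signal DNA breaks and replication stress to p53, had log2 fold changes of -0.72 (adjusted p = 0.0136) and -0.70 (adjusted p = 0.00271). Nqo1, a quinone reductase that also stabilises p53, had -0.56 (adjusted p = 0.0352), and Chek2, the kinase that acts after Atm, named after its value was seen, had -0.48 (adjusted p = 0.0377, limma). Atm and Atr stayed called in all 17 alternative fits that tested them, Nqo1 in 9 of 18 and Chek2 in 5 of 18. Without the library labelled RhoB-/- replicate 5 the adjusted p was 0.0562 for Nqo1 and 0.0882 for Chek2 (limma). Daxx, a histone chaperone that binds Mdm2, rose by 1.04 on the log2 scale (adjusted p = 1.08e-04, limma). The count of lower regulators was 2 after recentring, with no filter and without any 1 of WT replicates 4 and 5, RhoB-/- replicates 1 and 2 and the library labelled RhoB-/- replicate 5. It was 1 with a mean TPM of at least 5, which leaves fewer of them tested, and 7 without mitochondrially encoded genes.

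Of 18 genes of the BCL2 family and the apoptosome, 17 were tested, with a median log2 fold change of 0.15. Of these, 3 were higher (17.6%) and 1 was lower (5.88%), beside 7.73% and 13.5% of all tested genes. The higher count was 6 after recentring and with quantile normalization, 1 without RhoB-/- replicate 4 and with the replicate block, and 0 without WT replicate 4 or the library labelled RhoB-/- replicate 5. Among the higher ones were Cycs (log2 fold change 0.48), the cytochrome c that activates the apoptosome, and Bak1 (0.42), the close relative of Bax. Their adjusted p without the library labelled RhoB-/- replicate 5 was 0.0558 and 0.102 (limma). Pmaip1 was the lower gene of this list. The anti-apoptotic genes Mcl1 and Bcl2l1, named after their values were seen, had log2 fold changes of -0.02 and 0.36, and neither was called.

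**Figure D4:**
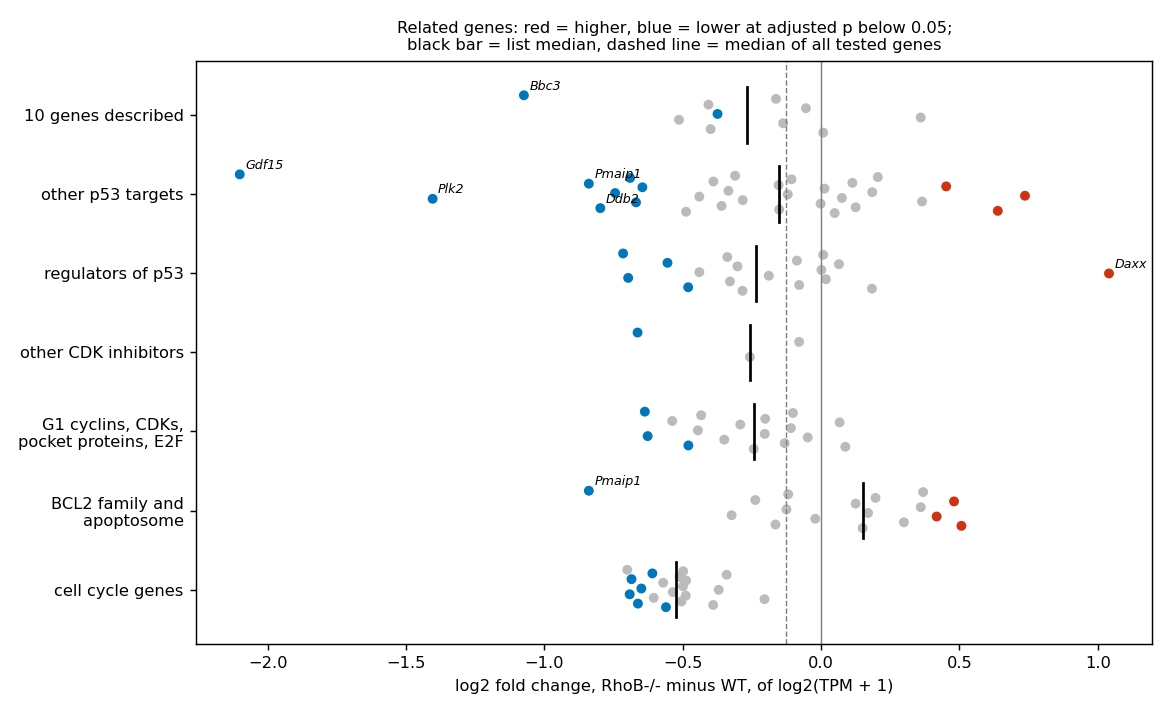
Log2 fold changes (RhoB-/- minus WT, of log2(TPM + 1)) of the 10 genes and of 6 lists of related genes, one point per gene, coloured where the adjusted p was below 0.05, with list medians as black bars and the median of all tested genes as a dashed line. All 20 cell cycle genes lie left of 0, whereas the BCL2 family list has its median at 0.15.

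Of 4 further CDK inhibitor genes, 3 were tested. Cdkn2c (p18) stood at -0.66 on the log2 scale (adjusted p = 0.0339, limma) and was called in 7 of the 18 alternative fits, and Cdkn1c and Cdkn2d were not called. Among 17 G1 cyclins, CDKs, pocket proteins and E2F genes, 3 were lower (17.6%) and 0 higher, beside 13.5% and 7.73% of all tested genes. They were E2f1 (log2 fold change -0.64), Cdk4 (-0.63) and Cdk2 (-0.48), the last 2 being kinases that the CDK inhibitors bind, and none of the 3 was called without the library labelled RhoB-/- replicate 5 (adjusted p = 0.0537, 0.0958 and 0.0596, limma). The count was also 0 after recentring, with no filter and without WT replicate 4 or RhoB-/- replicate 1, and 4 without RhoB-/- replicate 3. Of 11 relatives of the 10 genes, 8 were tested, with 3 lower (Gadd45b, Gadd45g and Cdkn2c, 37.5%) and 1 higher (12.5%). The higher one was Trp53inp2, at 0.29 (adjusted p = 0.0485, limma), which was called in 3 of the 18 alternative fits.

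Of 20 cell cycle genes that p53 and p21 are known to lower, 6 were called lower and 0 higher, beside 13.5% and 7.73% of all tested genes, and 14 were not called. All 20 log2 fold changes were negative, also in every one of the 18 alternative fits that tested the gene. Cdc25c, Bub1, Mybl2 and Cenpf were tested in 17, as they fell under the filter of a mean TPM of at least 5. In the comparison reported, 65.4% of all tested genes were negative. The median of the 20 was -0.52 (-0.40 after recentring). Among the 6 were Mcm5 (-0.69), Mki67 (-0.69), Mcm6 (-0.66) and Plk1 (-0.65). The summed TPM of the 20 was 396.9 to 591.7 in WT libraries. In RhoB-/- replicates 1, 2, 4 and 5 it was 309.7, 221.5, 353.5 and 264.2, and in RhoB-/- replicate 3 it was 583.6. RhoB-/- replicate 3 was also the RhoB-/- library with WT-like Trp53, a match that rests on 1 library and was seen afterwards. This library had the lowest mitochondrial share, at 10.3%, and was the highest RhoB-/- library for 5 of the 10 genes. The part of that share in its cell cycle values was not tested. Without RhoB-/- replicate 3, 18 of the 20 were called lower, beside 22.3% of all tested genes. After recentring, with no filter, and without WT replicate 2, WT replicate 4 or the library labelled RhoB-/- replicate 5, 1 was.

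Marker genes of cell types were counted in the same way, and fewer cells of a type cannot be told apart from less RNA per cell. The counts below stand beside 7.73% of all tested genes called higher and 13.5% called lower. Of 9 differentiated colonocyte markers 7 were higher and 0 lower, with a summed TPM of 13171 to 19802 in WT and 19036 to 35715 in RhoB-/- libraries. Of 6 crypt stem cell markers 3 were lower (Sox9, Smoc2 and Rgmb) and 0 higher, with sums of 56.2 to 83.7 and 31.5 to 49.7, whereas Lgr5 (log2 fold change -0.31), Axin2 (-0.33) and Ascl2 (0.20) were not called. Of 8 epithelium markers 3 were higher, and Epcam was at 968.8 or more in every library. Without the library labelled RhoB-/- replicate 5, Vil1 stayed called (adjusted p = 0.0102), whereas Cldn7 (0.0816) and Cdx2 (0.0987, limma) did not. Of 10 leukocyte markers 7 were tested and 6 were higher, at low sums of 6.49 to 11.5 in WT and 20.8 to 41.8 in RhoB-/- libraries, where Cd79a was at 0 in at least 1 WT library. Among the higher ones, Cd8a, Cd68 and Itgae had WT means of 0.832, 0.988 and 0.706 TPM. They passed the filter only through the RhoB-/- libraries, so the count of higher leukocyte markers is partly set by the filter. Of 8 markers of stroma, muscle and endothelium 2 were tested and 1, Vim, was higher, with Acta2 at 0.26 or less in every library. Vim was called in 8 of the 18 alternative fits. It was not called without the library labelled RhoB-/- replicate 5 (adjusted p = 0.0754, limma), which had the highest sum of these markers, at 30.5 TPM. The called colonocyte, crypt stem cell and leukocyte markers stayed called without that library. The part of these differences between groups in the values of the 10 genes was not tested.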

How the data were processed

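The analysis used 10 libraries of colonic IECs, 5 per genotype, grouped by their labels. From trimmed paired-end reads, the authors obtained alignments to GRCm38.p6 with HISAT2, assemblies with StringTie and gene expression with RSEM, per the methods and the submitters' processing notes, which also name edgeR. The annotation release and tool versions are not given in the sources used here. The deposited values are TPM per gene and library, rounded, without pooling. TPM keeps no depth, so no count test was run.

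Genotypes were compared with limma 3.58.1 in R 4.3.3 (moderated by eBayes, trend on) using log2(TPM + 1) of genes whose mean TPM was 1 or more, two-sided, with Benjamini-Hochberg adjustment over all of them. The fit was tested on simulated data. Gene positions are from GENCODE M21 on GRCm38 and promoter windows from RefSeq. Lists of p53 targets and regulators, CDK inhibitors and relatives, G1 genes, BCL2 family, cell cycle, heat shock and cell type markers were compiled by hand, and are described by counts and medians only. The 10 genes and the lists were chosen with earlier results of these data known. Named from each list were at most 4 genes with an adjusted p below 0.05 and the largest log2 fold change, and for Trp53 and Cdkn1a the 3 genes with the most similar profile. Any other gene was named after its values were seen. Alternatives were a pseudocount of 0.1, no filter or a mean TPM of at least 5, a replicate block, recentring, quantile normalization, TPM without mitochondrially encoded genes, limma without trend, the study's thresholds, and each library left out in turn. The counts over the related lists were recomputed under these alternatives after the data were seen.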

Additional observations from a re-analysis of the deposited data

Results flagged for a closer look

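Of 22 groups of 5 values, those of the 10 genes and Rhob in each genotype, 2 held a value far outside the remaining 4. Chance flags about 1 in 20 groups. One was Trp53 in RhoB-/- replicate 3, with a TPM of 34.86 against 21.99 to 24.52 in the other RhoB-/- libraries. The other was Rhob, with a TPM of 110.87 in the library labelled RhoB-/- replicate 5, against 0.09 to 0.57 in replicates 1 to 4.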

How the results depend on the processing

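Over the 10 genes and 18 alternative fits, 147 of 180 values kept their direction and their side of the threshold. The number of the 10 genes called lower, 2 in the comparison reported, was 1 at the study's thresholds, with no filter, after recentring and without the trend, 4 with a mean TPM of at least 5, 5 without mitochondrially encoded genes, and 1 to 3 with 1 library left out. Bbc3 was called in each of these fits, and Ccng1 was the gene lost where 1 remained. The count of genes called lower was 1072 at the study's thresholds, 1104 with a mean TPM of at least 5, 771 after recentring, 3536 without mitochondrially encoded genes, and 853 to 2868 with 1 library left out (853 without WT replicate 4, 2868 without RhoB-/- replicate 3). The count of genes called higher was 1587 with quantile normalization, against 719 to 1154 with 1 library left out. Cdkn1b had a log2 fold change of -0.057 without mitochondrially encoded genes and of -0.060 to 0.061 with 1 library left out, Cdkn2b of 0.071 after recentring and of -0.19 to 0.063 with 1 library left out, and Gadd45a of -0.37 to 0.012 with 1 library left out. The cause of these shifts was not tested.

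The replicate numbers are shared by both genotypes, but the correlation of same-numbered libraries over genes, -0.09 to 0.07, gives no sign of pairing, and 1 of 5 numbers correlated best with its own. With the replicate block, 2 of the 10 genes were called lower, Bbc3 and Trp53inp1, and 1059 genes in all. The precision of single values is limited by the 5 mice per genotype, and the sequencing depth is unknown.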
